A study of Gallus gallus with 5 samples.

Results

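The genes of the DNA replication machinery were described across 5 messenger RNA libraries of blastoderms from the chicken (Gallus gallus). The blastoderm is the flat embryo that floats on the yolk when an egg is laid. Members were genes whose symbols name subunits of the origin recognition complex, the MCM helicase, its loaders and activators, or the replicative polymerases. The sliding clamp and its loader, the RPA complex, and FEN1 and LIG1 of Okazaki fragments were included too. So were the fork protection proteins and the large subunit of ribonucleotide reductase. Of 52 such symbols in the RefSeq table used for names, 36 had a value, out of 10102 genes with a symbol in the series. The other 16 symbols (CDC6, GINS4, GINS4-PPP1RL, LIG1, MCM8, MCM9, MCM10, POLA1, POLA2, POLD1, POLD2, POLD4, POLE4, PRIM1, RFC5 and TIMELESS) and MCM7 were not analysed here, so several complexes are seen in part.

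The 5 conditions were no storage, incubation at 37 °C for 4 h, and storage over 7 days at 3 temperatures, namely 4 °C, 16 °C and 24 °C. Each library was made from poly(A)-selected RNA and read as paired 101 bp reads. The labels give neither the breed nor how many blastoderms were pooled for a library. Every condition had 1 library, so no difference has a replicate check, and no p-value or error between replicates can be given. A difference therefore lies between these libraries. Dormancy, the pause of a cooled egg, is tied in the series title to an arrest between G2 and M phase, and the replication genes describe S phase, which comes before it.

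Before S phase, the origin recognition complex marks the places where replication can start, and CDC6 and CDT1 help it to load the ring-shaped MCM helicase onto DNA. The kinase CDC7 with its activator DBF4, and then CDC45 and the GINS complex, turn the loaded ring into a moving helicase. DNA polymerase alpha with primase starts each strand, polymerases delta and epsilon extend it, PCNA clamps them to the template after loading by RFC, and RPA covers exposed DNA strands. Cells of the early embryo divide rapidly, and transcripts for this machinery are abundant in such cells.

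The authors deposited FPKM, fragment numbers scaled by transcript length and by sequencing yield. No counts came with them, so the depth behind a value is unknown. All 36 members had FPKM of at least 1 in 1 or more libraries, the filter that kept 7733 genes. Differences are given as log2 ratios of FPKM + 1, on which 2-fold is a value of 1 or -1. Summed FPKM over all rows was between 333528 and 389061 per library, and the median log2 ratio of all genes to the unstored library was 0.12 after incubation, and for storage it was 0.10 (4 °C), -0.04 (16 °C) and 0.04 (24 °C). The 8 measured markers of epiblast and pluripotency summed to FPKM 1461 in the unstored library, 1244 in the incubated one, 1498 (4 °C), 590 (16 °C) and 596 (24 °C), with 7 of the 8 at FPKM of at least 1 in each library and SOX2 below it. Each library thus held the labelled tissue's markers. Their summed level and that of the replication genes were both lower at 16 and 24 °C, and their part in the result was not tested. The 5 measured hypoblast markers summed to 27.2, 89.6, 70.0, 28.3 and 51.8 in the same order. Markers of red cells (6 measured genes) summed to between 6.07 and 11.9, of white cells (5) to between 4.20 and 25.6, of egg white (7) to between 3.49 and 27.1, and of muscle and nerve (6) to between 2.22 and 23.5. The white cell and egg white sums were highest at 24 °C. LCP1 (FPKM 1.79 unstored and 21.1 at 24 °C) made up most of the white cell sum at 24 °C, where CD3E was 3.10, PTPRC 1.07, CD74 0.28 and SPI1 0.08. Of the egg white genes, TF (FPKM 1.71 unstored and 14.6 at 24 °C) and AVD (2.59 and 11.6) made up most of the egg white sum at 24 °C. OVAL was at most 0.05 in any library, and OVALY was listed at 0 in all 5. In whole tissue, fewer cells in S phase and less RNA per cell cannot be told apart.

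Replication genes were well expressed in the unstored blastoderm and lower after the 2 warmer storage conditions. The member median was FPKM 35.2 in the unstored library, 35.3 after incubation, 38.7 at 4 °C, 22.3 at 16 °C and 28.6 at 24 °C, while the median of all genes kept was 11.2, 12.8, 12.2, 10.7 and 11.5. PCNA, the sliding clamp, was the most abundant member in every library, at FPKM 296, 218, 311, 148 and 130 in that order. ORC3 was the least abundant without storage (8.37), at 4 °C (11.3) and at 16 °C (5.42), GINS1 after incubation (10.9) and GINS2 at 24 °C (4.53). Of the 36 members, 14 had their lowest level at 16 °C and 12 at 24 °C, 6 after incubation, 4 without storage and 0 at 4 °C. The highest level lay at 4 °C for 15 members and after incubation for 11. The same counts were not made over all genes, so they are not shown to be particular to the members. The log2 ratio to unstored was below 0 for 28 members at 16 °C and 30 at 24 °C, where it was for 52.0% and 48.2% of all genes. At 4 °C it was below 0 for 7 members, against 30.9% of all genes. This count and that of members highest at 4 °C depend on how libraries are scaled. With median-ratio size factors, 14 members changed sign between 4 °C and unstored.

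**Figure D1:**
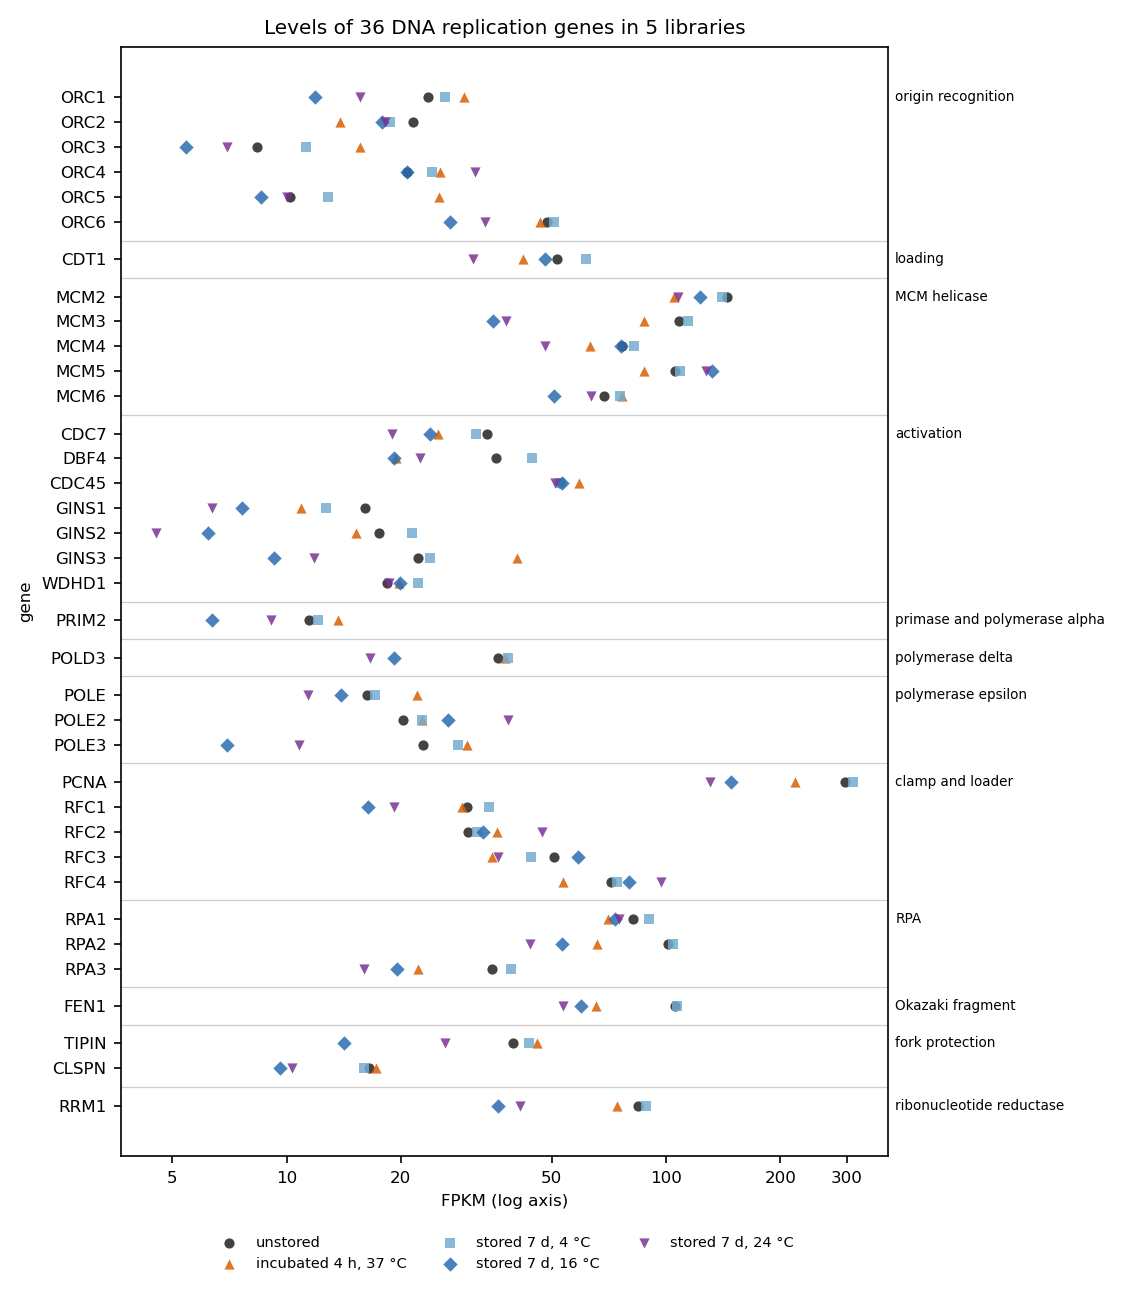
FPKM of each of the 36 replication genes (log axis), grouped by role, with 1 symbol per library. For most genes the symbols of 16 and 24 °C lie to the left of the others, as for MCM3 at 35.0 and 37.8 against 108 in the unstored library, whereas those of CDC45 lie together between 50.9 and 59.0. The share of all genes with this split was not computed, so it is not shown to be particular to the members.

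Storage at 16 °C gave 6 of 36 members at least 2-fold lower than unstored and 0 higher, where 8.75% of all genes were that much lower and 7.65% higher. At 24 °C 9 of 36 were lower and 0 higher, where 8.35% of all genes were lower and 10.5% higher. The count of 9 depended on the scale. It was 4 with a pseudocount of 5, and 5 with FPKM rescaled to a common total of 1000000. With that rescaling, 1 member (POLE2) was past 2-fold on the higher side. The shares of all genes past 2-fold were not computed under these settings, so the counts of 4 and 5 cannot be read against 8.35%. The member medians were -0.64 at 16 °C and -0.57 at 24 °C. Both comparisons use the same unstored library, so they are not independent of each other. A lower bar of 1.5-fold took 18 members as lower at 16 °C and 17 at 24 °C, against 20.7% and 20.2% of all genes. Members are mostly well expressed, and among genes with a mean FPKM of at least 5 10.3% (16 °C) and 9.51% (24 °C) were past 2-fold on the lower side. At 16 °C, PCNA (-0.99) and GINS1 (-0.99) lay just short of 2-fold.

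**Figure D2:**
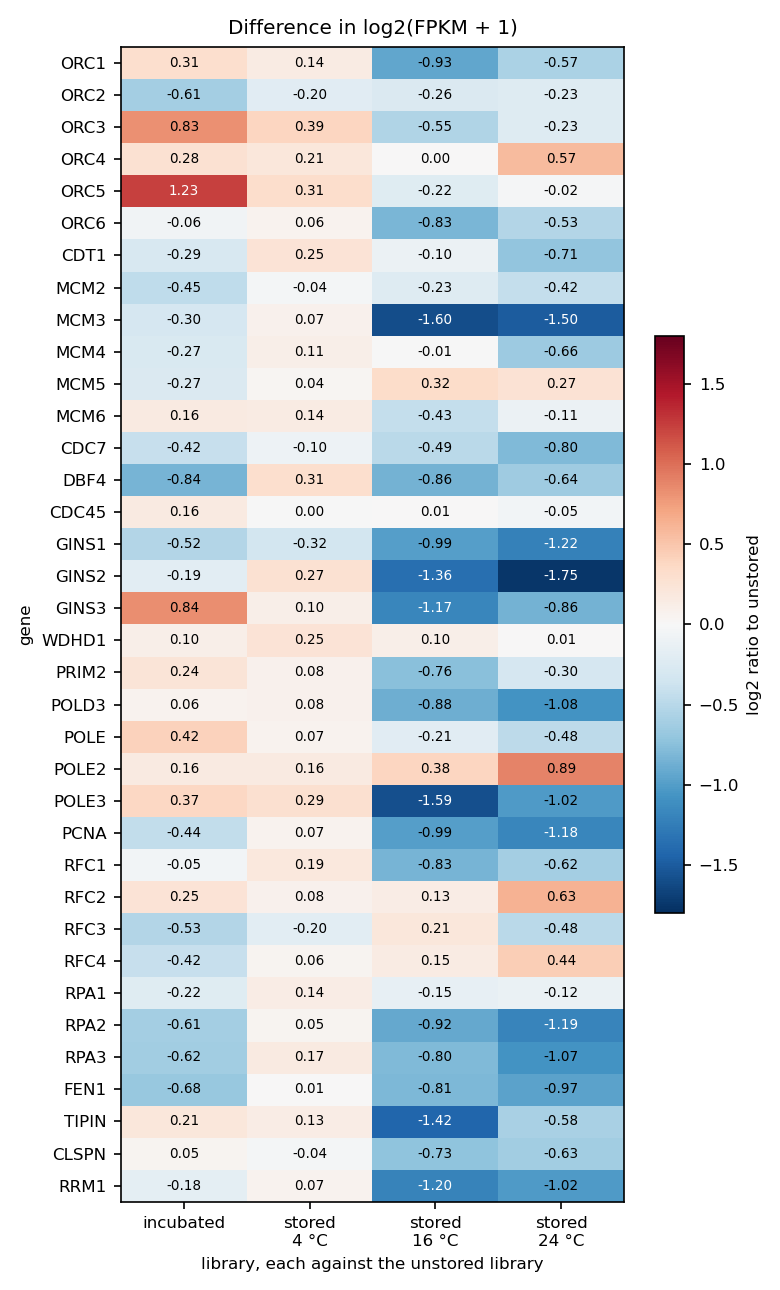
Difference in log2(FPKM + 1) between each of 4 libraries and the unstored library, for 36 genes in order of role, with red for higher and blue for lower. The 4 °C column stays between -0.32 and 0.39, and the deepest blue lies at MCM3 and POLE3 at 16 °C (-1.60 and -1.59) and at GINS2 at 24 °C (-1.75).

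Origin recognition came first in order of action. ORC1, the subunit that is made and destroyed with the cell cycle in mammals, had FPKM 23.6 in the unstored library, 29.4 after incubation, 26.1 at 4 °C, 11.9 at 16 °C and 15.6 at 24 °C, so that both warmer stored libraries lay below the other 3 (log2 ratios to unstored -0.93 and -0.57). ORC6 was 48.6, 46.7, 50.8, 27.0 and 33.3 (-0.83 at 16 °C and -0.53 at 24 °C). Of its 2 transcript rows, the lower one was 14.9 in the unstored library and 3.10 at 16 °C, against 11.3 at 24 °C. ORC4 lay the other way at 24 °C, at 31.3 against 20.8 in the unstored library (0.57). ORC5 was 10.2 unstored, 25.3 incubated, 12.9 at 4 °C, 8.59 at 16 °C and 10.02 at 24 °C, and had the largest log2 ratio of the members after incubation (1.23), and ORC3 followed it within the complex, with 8.37 and 15.6 (0.83). ORC2 was lowest in the incubated library, at 13.8 against 21.6 unstored (-0.61).

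Loading and the helicase ring came next. CDT1, which brings MCM to origins, had FPKM 51.6 unstored, 42.1 incubated, 61.6 at 4 °C, 48.0 at 16 °C and 31.1 at 24 °C, and thus stood apart at 24 °C (-0.71) and not at 16 °C (-0.10). MCM3 was 108, 87.7, 114, 35.0 and 37.8, with log2 ratios to unstored of -1.60 at 16 °C and -1.50 at 24 °C. MCM5, the neighbour subunit in the same ring, was 106, 87.7, 109, 132 and 127 (0.32 and 0.27). MCM3 was therefore low and MCM5 high in the same 2 libraries. MCM2 moved between 105 and 144 and MCM6 between 50.7 and 76.5. MCM4 was 76.4 unstored, 76.1 at 16 °C (-0.01) and 48.1 at 24 °C (-0.66).

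Subunits of a complex can be set against each other within a library, where any scaling between libraries drops out. The pairs set against each other here and for the complexes that follow were chosen after their values were seen. The FPKM of MCM3 was 1.03 times that of MCM5 in the unstored library, level with it after incubation and 1.05 times as high at 4 °C, but 0.265 times at 16 °C and 0.297 times at 24 °C. Over the 5 measured subunits, the highest exceeded the lowest 2.11-fold in the unstored library, 1.67-fold after incubation and 1.86-fold at 4 °C, against 3.78-fold at 16 °C and 3.36-fold at 24 °C. The MCM subunits were thus closer to equal levels in the first 3 libraries. The same fold was also largest at 16 and 24 °C for helicase activation, polymerase epsilon, the RFC loader and RPA. This did not hold for every complex. For the 6 ORC genes it was 5.81 unstored, 3.38 incubated, 4.50 at 4 °C, 4.97 at 16 °C and 4.78 at 24 °C. For TIPIN and CLSPN it was 2.39 unstored, 1.47 at 16 °C and 2.53 at 24 °C. Such a ratio shows an unequal difference and does not show which subunit held its level.

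Helicase activation included the GINS genes, whose products bind the ring together with CDC45. GINS2 had FPKM 17.6 in the unstored library, 15.3 after incubation, 21.4 at 4 °C, 6.22 at 16 °C and 4.53 at 24 °C, the lowest log2 ratio of any member at 24 °C (-1.36 and -1.75). GINS1 was 16.1, 10.9, 12.7, 7.64 and 6.35 (-0.99 and -1.22). GINS3 was 22.2, 40.4, 23.9, 9.29 and 11.8 (-1.17 and -0.86), and unlike GINS1 and GINS2 it was highest after incubation (0.84). CDC45 had nearly the same level in each library, 52.7, 59.0, 52.5, 53.1 and 50.9, and so did WDHD1, which links the helicase to polymerase alpha, at 18.4 to 22.2. The CDC45 level sums 3 transcript rows that did not move alike. The highest row was 41.83 unstored, 48.12 at 16 °C and 42.65 at 24 °C, and the next was 8.64, 3.60 and 5.50. The FPKM of GINS2 went from 0.334 times that of CDC45 in the unstored library and 0.407 at 4 °C to 0.117 at 16 °C and 0.0890 at 24 °C. The kinase CDC7 was 33.8, 25.1, 31.5, 23.8 and 19.0 (-0.49 and -0.80). Its activator DBF4 was 35.6, 19.5, 44.3, 19.2 and 22.4, low in the incubated library (-0.84) as in both warmer stored ones (-0.86 and -0.64), and 4 of its 5 transcript rows were above 0. These rows did not move alike at 24 °C. From unstored to 24 °C, 1 row went from 6.28 to 7.31. The others above 0 went from 13.1 to 6.42, from 11.6 to 6.06 and from 4.59 to 2.64.

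Of the polymerases, epsilon had 3 measured subunits. POLE3, a histone-fold subunit that also belongs to a chromatin remodelling complex, had FPKM 23.0 unstored, 30.0 incubated, 28.3 at 4 °C, 6.98 at 16 °C and 10.8 at 24 °C (-1.59 and -1.02). POLE2, the subunit next to the catalytic one, was 20.3, 22.8, 22.8, 26.7 and 38.4 (0.38 and 0.89), the largest positive log2 ratio of any member at 16 and at 24 °C. The catalytic subunit POLE was 16.3, 22.0, 17.1, 13.9 and 11.4 (-0.21 and -0.48). POLE3 thus changed from 1.13 times the FPKM of POLE2 in the unstored library to 0.261 times at 16 °C and 0.281 times at 24 °C. POLD3, an accessory subunit of polymerase delta, was 36.2, 37.7, 38.3, 19.2 and 16.6 (-0.88 and -1.08), lower in both warmer stored libraries than in the rest. PRIM2, the large primase subunit, was 11.4, 13.7, 12.1, 6.36 and 9.11 (-0.76 and -0.30).

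PCNA and the loader subunit RFC1 were both lower after the warmer storage conditions. The other measured loader subunits did not share this. RFC2 and RFC4 were higher at 24 °C, with only small positive log2 ratios at 16 °C (0.13 and 0.15). RFC3 had a small positive value at 16 °C and was lower at 24 °C. The PCNA levels given above make log2 ratios to unstored of -0.99 at 16 °C and -1.18 at 24 °C, and -0.44 after incubation. RFC1, the large loader subunit, was 30.0, 29.0, 34.3, 16.4 and 19.2 (-0.83 and -0.62). RFC2 and RFC4, small subunits of the loader, were on the higher side at 24 °C, RFC2 at 47.0 against 30.0 unstored (0.63) and RFC4 at 97.3 against 71.6 (0.44). RFC3 was 50.6, 34.8, 44.1, 58.5 and 36.0, high at 16 °C (0.21) and low at 24 °C (-0.48). Per unit of RFC4, PCNA stood at 4.14 in the unstored library, 4.09 after incubation and 4.17 at 4 °C, and at 1.86 and 1.34 at 16 and 24 °C. RFC1 per unit of RFC4 was 0.419, 0.542, 0.460, 0.206 and 0.197.

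**Figure D3:**
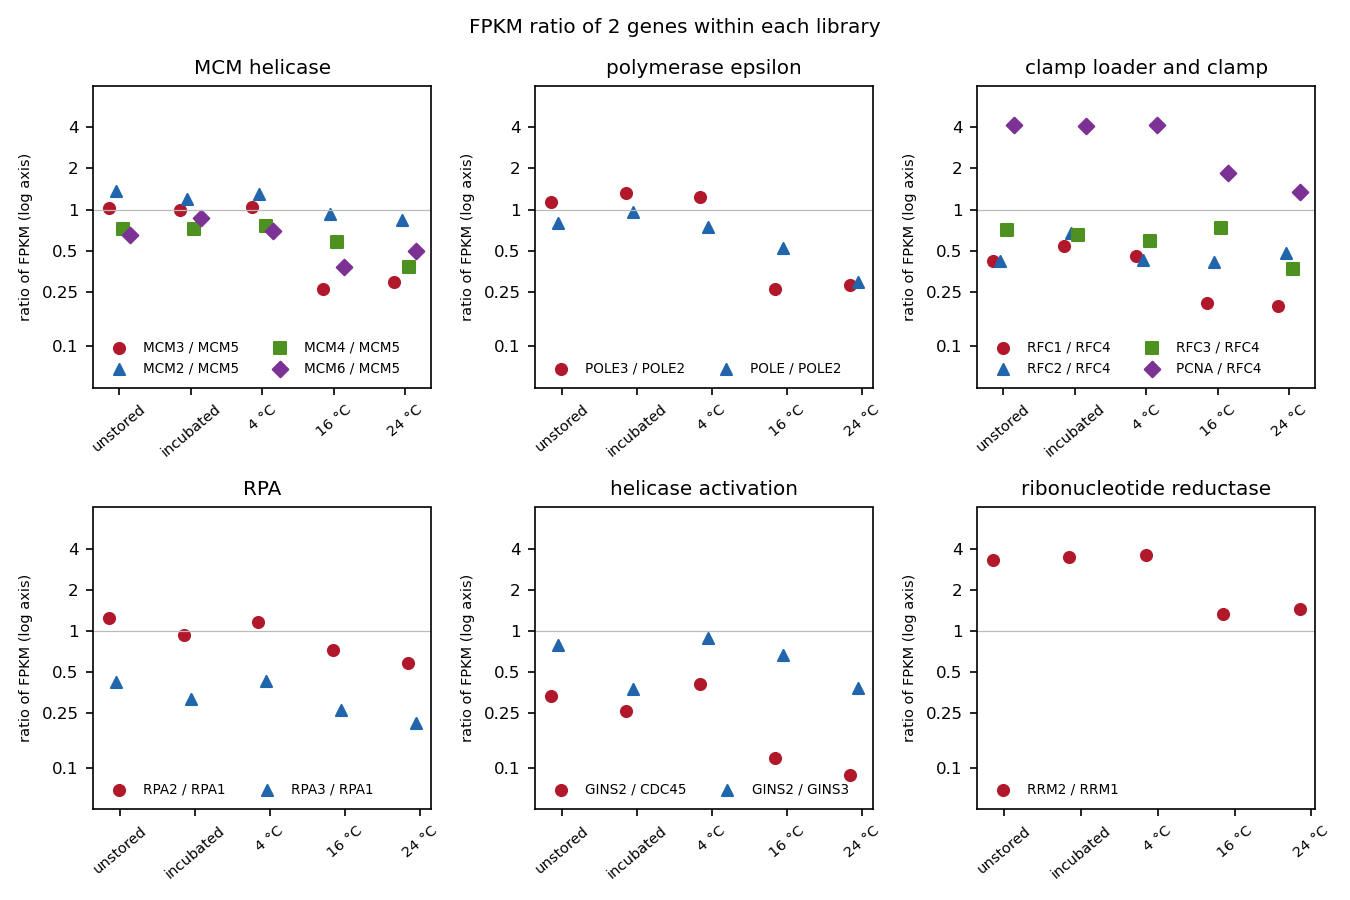
Ratio of the FPKM of a pair of genes within each of the 5 libraries (log axis), in 6 panels by complex. The ratios MCM3 to MCM5, POLE3 to POLE2, PCNA to RFC4 and GINS2 to CDC45 are each higher in the unstored, incubated and 4 °C libraries than at 16 and 24 °C, for example 1.03 against 0.265 and 0.297 for MCM3 to MCM5. The ratios GINS2 to GINS3, RFC2 to RFC4 and RFC3 to RFC4 do not split this way. In library order, GINS2 to GINS3 is 0.792, 0.377, 0.894, 0.670 and 0.384, and RFC2 to RFC4 is 0.419, 0.670, 0.426, 0.413 and 0.483. RFC3 to RFC4 is 0.707, 0.651, 0.592, 0.734 and 0.370.

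RPA, the complex that covers exposed strands, showed a like split. RPA2 had FPKM 101, 65.9, 105, 53.2 and 43.7 (-0.92 at 16 °C and -1.19 at 24 °C), and RPA3 34.8, 22.3, 39.1, 19.6 and 16.0 (-0.80 and -1.07). RPA1, the largest subunit, was 81.9, 70.3, 90.0, 73.6 and 75.1 (-0.15 and -0.12). RPA2 and RPA3 were also lower after incubation (-0.61 and -0.62), which places the incubated library between the unstored and the warmer stored ones for these genes. FEN1, which trims the flaps of Okazaki fragments, had the same order of levels, 106, 65.4, 107, 59.8 and 53.5 (-0.68 incubated, -0.81 at 16 °C and -0.97 at 24 °C).

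Fork protection and nucleotide supply closed the set. TIPIN, the partner of TIMELESS at the fork, was 39.6, 45.8, 43.6, 14.2 and 26.2 (-1.42 at 16 °C and -0.58 at 24 °C). It was past 2-fold lower at 16 °C only. It was also the member that differed most between 16 and 24 °C on the higher side (log2 ratio of 24 to 16 °C 0.84). CLSPN, which passes a stalled-fork signal to the checkpoint kinase CHEK1, was 16.5, 17.2, 16.1, 9.61 and 10.3 (-0.73 and -0.63). RRM1, the large subunit of ribonucleotide reductase, was 84.4, 74.3, 88.4, 36.2 and 41.3 (-1.20 and -1.02). The small subunit gene RRM2, which is not a member, stood at 3.30 times the FPKM of RRM1 in the unstored library and at 1.34 and 1.46 times at 16 and 24 °C, so its difference was the larger one.

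Storage at 4 °C left the members close to the unstored library, and most other genes too, so this was not particular to the members. Of 36, 0 were at least 2-fold lower and 0 higher, against 0.0909% and 0.637% of all genes. At 1.5-fold the counts were also 0 and 0, against 0.857% and 3.96%. The median was 0.08, against 0.10 for all genes, and the values ran from -0.32 for GINS1 to 0.39 for ORC3. The small positive values at 4 °C do not carry a direction, since 14 members changed sign when libraries were rescaled by median-ratio size factors.

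Incubation for 4 h at 37 °C gave 1 member at least 2-fold higher, ORC5, and 0 lower, against 8.48% and 2.53% of all genes. The member median was -0.12, with 20 members below 0 and 16 above, where 41.4% of all genes were below 0 and their median was 0.12. At 1.5-fold, 5 members were lower (ORC2, DBF4, RPA2, RPA3 and FEN1) and 3 higher (ORC3, ORC5 and GINS3), where 9.44% and 22.1% of all genes were.

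Between the 2 warmer stored libraries, 0 members differed by 2-fold in either direction, where 1.23% of all genes were lower and 2.83% higher at 24 °C. The median was 0.06 and that of all genes 0.07. Within this narrow range, the 6 ORC genes were all on the higher side at 24 °C, from 0.03 for ORC2 to 0.57 for ORC4, although ORC2 changed sign with size factors. Values above 0 were common, with 20 of the 36 members and 4342 of 7693 genes there. Of the members, TIPIN (0.84) had the highest value, and RFC3 (-0.69), MCM4 (-0.65) and CDT1 (-0.61) the lowest. Set against 4 °C, the 16 °C library had 10 members at least 2-fold lower and the 24 °C library 8, where 13.0% and 11.7% of all genes were. Against the incubated library, 9 were lower at 16 °C and 7 at 24 °C, where 14.3% and 10.2% of all genes were. GINS3, high after incubation, had the lowest value of both (-2.01 and -1.69). Between 4 °C and the incubated library, 1 member was 2-fold higher at 4 °C, DBF4 (1.15), against 2.84% of all genes.

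A list of 89 other genes of S phase and DNA synthesis gave 61 with a value. It was chosen with earlier results of these data known, so it is not independent of them. At 16 °C 11 of the 61 were at least 2-fold lower than unstored and 1 higher, where the shares over all genes were 8.75% and 7.65%. At 24 °C 14 were lower and 2 higher, against 8.35% and 10.5%. Their medians were -0.28 and -0.43. At 16 °C the 5 lowest were RRM2, CCNE1, GMNN, CHTF8 and CCNE2, and at 24 °C LRWD1, RRM2, CCNE1, CCNE2 and GMNN. CCNE1 and CCNE2 are cyclins that start S phase with CDK2. CCNE1 had FPKM 42.1 unstored, 50.3 incubated, 48.8 at 4 °C, 11.6 at 16 °C and 8.47 at 24 °C. GMNN is geminin, the inhibitor of CDT1. GMNN had FPKM 66.0 unstored, 28.7 incubated, 68.1 at 4 °C, 20.2 at 16 °C and 18.9 at 24 °C (-1.66 and -1.75). CHTF8, a subunit of an alternative clamp loader, was 19.1 unstored and 5.68 at 16 °C (-1.59). LRWD1, a protein bound to the origin recognition complex, was 30.6, 40.4, 30.4, 13.2 and 4.87, the lowest at 24 °C (-2.43). On the higher side at 16 °C stood POLG2, an accessory subunit of the mitochondrial polymerase (0.86), and POLH and REV1, polymerases that copy damaged DNA (0.70 and 0.69). At 24 °C the highest by the same rule was ZRANB3, a fork remodelling enzyme, from 3.61 to 9.34 (1.17). RRM2B, the p53-regulated small subunit of ribonucleotide reductase, and HUS1, of the checkpoint clamp, followed (both 0.66). ZRANB3 and RRM2B were higher still after incubation, at 11.8 (1.48) and 15.0 (1.49). HUS1 was 6.27 there, against 6.95 unstored. At 4 °C 0 of the 61 passed 2-fold in either direction, against 0.0909% lower and 0.637% higher over all genes. After incubation 1 was lower and 4 were higher, shares of 1.64% and 6.56% that lie near the 2.53% and 8.48% of all genes.

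**Figure D4:**
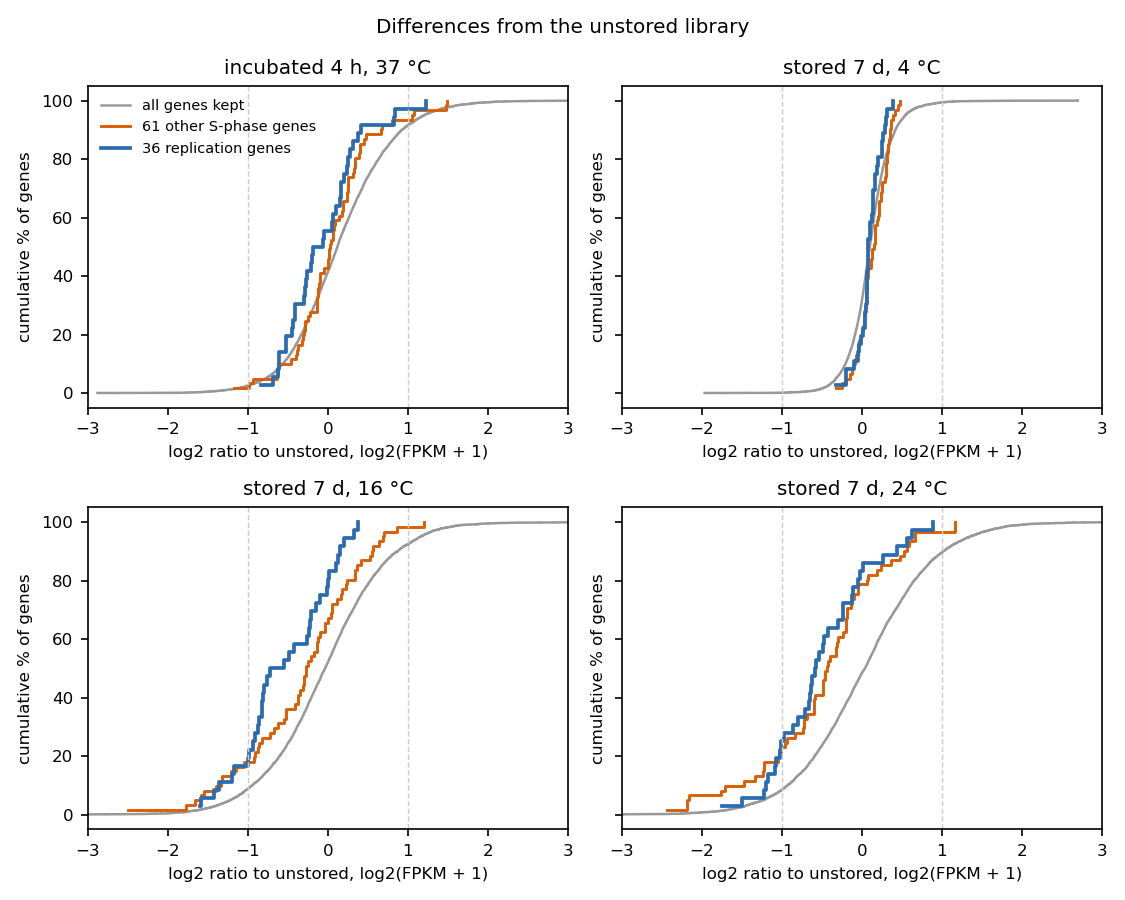
Cumulative share of genes by log2 ratio to the unstored library, in 4 panels by library, for the 36 replication genes, 61 other S-phase genes and all genes kept, drawn from -3 to 3 with dashed lines at 2-fold. At 16 and 24 °C the curve of the replication genes lies to the left of that of all genes, with medians of -0.64 and -0.57 against -0.04 and 0.04, and at 4 °C the medians are 0.08 and 0.10.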

How the data were processed

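Total RNA was isolated with an RNeasy kit, poly(A)-selected and made into TruSeq libraries, per the labels' protocols. The authors deposited FPKM per RefSeq transcript accession, per the file headers. The submitters' processing notes name TopHat2 2.0.8, Cufflinks 2.0.2 and galGal4 without saying what each was used for. How libraries were scaled and which annotation was used is not stated there.

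Accessions were looked up without version in RefSeq's gene table for GRCg7b, a later build, which gave symbols for 12609 of 32188 rows (39.2%). No coordinate of it was used. Rows of a symbol were summed, and 32 of 36 members had 1 row. An isoform whose accession was not matched is missing from a gene's value, so a shift between isoforms can look like a difference of the gene. Genes that reached FPKM 1 in any library were kept, and a pseudocount of 1 was used on the log2 scale, which understates the difference of low genes. With 1 library per condition no test was run, and counts past 2-fold required FPKM above 0 in both libraries. The depth of each library is unknown, so no counting interval was computed. The steps (Python 3.11.15, pandas 2.3.3) were tested on simulated data for 16 °C against unstored and called 200 of 200 changed genes. The planted changes lay well past 2-fold, with little noise, on genes well expressed in the unstored library. Recovery was thus set by the design and says nothing of low genes or of differences near 2-fold.

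The members and lists were chosen with earlier results of these data known. By the rule for named genes, members past 2-fold against unstored are given in all 5 libraries and the others by level or as examples. From the list of other S-phase genes, the 5 lowest and 3 highest at 16 and at 24 °C were named, among those with FPKM of at least 5 in 1 of the 2 libraries. A plan to examine promoter and protein sequences was not carried out, and sequences are not analysed here. Alternatives were pseudocounts of 0.1 and 5, a mean FPKM of at least 5, no filter, size factors, rescaling to 1000000, the highest row, curated accessions, genes with 1 accession, and a 1.5-fold threshold.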

Additional observations from a re-analysis of the deposited data

How the results depend on the processing

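The counts of members at least 2-fold lower and the medians, for the 4 comparisons with unstored and for 24 against 16 °C, were recomputed under 10 alternatives. Of 95 such values, 87 stayed within 1.5 times the count or within 0.15 of the median. Those with no filter or with a mean FPKM of at least 5 could not differ, since every member passed both filters. With a pseudocount of 5 the median at 16 °C was -0.48 and the count at 24 °C was 4, and with FPKM rescaled to 1000000 per library the count at 24 °C was 5, in place of 9. The shares of all genes past 2-fold were not computed under these settings. Rescaling also moved the median log2 ratio of all genes to 0.11 at 16 °C and 0.19 at 24 °C, and the cause of the lower counts was not tested. At 1.5-fold the lower counts were 5 for incubation, 18 at 16 °C and 17 at 24 °C, against 9.44%, 20.7% and 20.2% of all genes. For 24 against 16 °C the lower count was 3 of 36 (8.33%). That lay near the 6.06% of genes with a mean FPKM of at least 5. With the highest row per symbol, 1 member was lower after incubation. Over 1545 values of single members, 11 no longer passed 2-fold, 4 newly did and 0 past 2-fold changed sign. Those lost at 24 °C with the pseudocount of 5 were GINS1, POLD3, POLE3, RPA3 and RRM1, and with rescaling POLD3, POLE3, RPA3 and RRM1. Those newly past 2-fold were POLE2 at 24 °C with rescaling (1.04, on the higher side), GINS1 at 16 °C with a pseudocount of 0.1 (-1.07), FEN1 at 24 °C with size factors (-1.04) and DBF4 after incubation with the highest row (-1.24). GINS3 at 16 °C (-0.93) and ORC5 after incubation (0.99) were lost with the pseudocount of 5. Differences of at most 0.12 changed sign with the scaling. Many of the 1545 values could not change. Every member passed the filters, which fixed 180 values with no filter and 180 with a mean FPKM of at least 5. The 160 values of genes with 1 accession and the 125 from curated accessions came from the same rows as before. Members with 1 row were also fixed under the highest row. The totals therefore overstate stability. No paired analysis was possible because each condition has 1 library, and for the same reason no library could be left out. The missing depth and replicates limit every value.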
